A study of Mus musculus with 6 samples.

Results

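Rab proteins are small GTPases of the Ras superfamily that mark the membranes of the cell, and the 56 Rab genes described here are measured in alveolar macrophages, which live in the airspaces of the lung and take up particles and surfactant. They are the rows of a table of 25664 genes whose symbol is Rab followed by a number and at most a letter and a digit. 59 symbols fit that pattern, and Rab27a, Rab32 and Rab38 were left out. RNA was sequenced from macrophages sorted from lavage fluid, with 3 libraries of genotype Vav1cre/+ Pex5fl/fl, called Pex5-deficient, and 3 of genotype Pex5fl/fl, called control. Both groups carry the floxed Pex5 allele on both chromosomes, so the controls, titled WT by the submitters, are floxed animals without the recombinase. The Vav1 promoter drives Cre throughout the haematopoietic system, so the deletion is not targeted to macrophages alone. Strain, age and sex are not given in the labels used here, nor is any treatment. PEX5 is the receptor that carries most matrix enzymes into peroxisomes.

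A Rab protein cycles between a form bound to GTP, which sits on a membrane and recruits effectors, and a form bound to GDP, which an inhibitor keeps in the cytosol. Exchange factors switch a Rab on, GTPase-activating proteins switch it off, and a lipid anchor added by geranylgeranyl transferase lets it bind membranes. In macrophages these proteins guide secretion from the Golgi, the sorting of endosomes, and the steps by which a phagosome matures into a phagolysosome.

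Library totals ran from 13325609 to 19413838 counts. Pex5-deficient replicate 2 stood apart: the 50 most abundant genes made up 30.4% of counts there and 38.3% to 42.1% elsewhere, and its scaling factor was 1.34, against 0.899 to 1.03. Pex5 itself was at 29.7 to 33.0 CPM (read counts relative to the scaled library size) in control and 29.6 to 36.3 CPM in Pex5-deficient libraries, and since reads from undeleted exons are counted too, this level does not check the genotype labels. All 10 of 10 markers of alveolar macrophages had reads, and they differed in direction. Siglecf (log2 fold change -1.57) and Krt79 (-1.44) fell and Fabp4 (1.46) rose, while Pparg (0.07 ± 0.11) and Chil3 (0.16 ± 0.55) were not called. The other 5, Marco (-0.84 ± 0.47), Mrc1 (-0.48 ± 0.20), Itgax (-0.43 ± 0.18), Car4 (-0.33 ± 0.40) and Mertk (-0.22 ± 0.11), were negative and not called either. Of the 10 markers 7 had negative values, and the median was -0.38. Of 10 neutrophil markers, Ly6g, Camp, Ngp, Retnlg and S100a9 were at 0 in all 6 libraries. The sum over all 10 ran from 84.5 to 98.6 CPM among controls, against 125 to 188 CPM for the Pex5-deficient group. Cxcr2 and S100a8 rose. Mmp8 went from a mean of 36.9 to one of 69.3 CPM without being called (0.90 ± 0.31, adjusted p = 0.156). Csf3r lay the other way, with means of 40.5 and 28.1 CPM, overlapping groups and no call (-0.52 ± 0.24). The 8 epithelial markers summed to 39.4 to 59.3 CPM in control and 54.2 to 76.7 CPM in Pex5-deficient libraries, most of it Cdh1. The more specific Sftpc (-1.15 ± 0.53, groups not overlapping) and Scgb1a1 (-0.82 ± 0.40) lay the other way, and neither was called. Markers of lymphocytes, dendritic cells, and eosinophils or mast cells summed to under 1 CPM in each library. The part of these shifts in the Rab differences below was not tested. In bulk samples, fewer cells of a type and less RNA per cell cannot be told apart.

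Where the phagosomal Rabs are concerned, the data went in both directions, and the windows before the transcription starts of the gene that fell most and of the member with the largest positive difference are shown for that contrast. Each is the 250 bases before the start given by RefSeq (GRCm38.p6), read 5′ to 3′ on the gene's strand, with matches to the motifs searched in capitals. Rab39 lies on chromosome 9 from 53684110 to 53706232 on the minus strand, in 2 exon blocks, and its window is chr9:53706233-53706482. Rab34 lies on chromosome 11 from 78188430 to 78192193 on the plus strand, and its window, that of the more upstream of the RefSeq starts, is chr11:78188177-78188426. Neither window overlaps an annotated exon. Both genes and the motifs were chosen after the values were seen.
Rab39: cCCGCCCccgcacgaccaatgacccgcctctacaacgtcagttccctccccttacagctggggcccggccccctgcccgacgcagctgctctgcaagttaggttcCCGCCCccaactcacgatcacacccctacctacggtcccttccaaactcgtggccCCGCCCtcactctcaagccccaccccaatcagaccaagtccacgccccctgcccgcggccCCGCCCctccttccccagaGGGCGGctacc
Rab34: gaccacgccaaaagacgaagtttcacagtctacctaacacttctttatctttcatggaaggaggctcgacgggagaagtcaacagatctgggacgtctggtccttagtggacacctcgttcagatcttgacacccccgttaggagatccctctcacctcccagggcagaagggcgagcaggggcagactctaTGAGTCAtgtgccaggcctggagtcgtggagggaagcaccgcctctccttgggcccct

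The motifs were searched on both strands. The GC box of the Sp family, GGGCGG, is present in 32.7% of the 32851 mouse windows of this length and matches 5 times in the window of Rab39 and 0 times in that of Rab34. The AP-1 site, TGANTCA, is present in 6.75% of windows and matches 1 time before Rab34 and 0 times before Rab39. The E-box CACGTG (6.02% of windows) and the PU.1-type site GAGGAAGT (2.44%) had 0 matches in both. GC content was 68.8% for Rab39 and 56.4% for Rab34. At the other RefSeq start of Rab34 the contrast in AP-1 sites and GC content was absent, and that in GC boxes was smaller. Its window, chr11:78188498-78188747, had 1 GC box, 0 AP-1 sites and a GC content of 68.4%, and 14 of its bases lie in an exon of Rab34. The windows of Rab6b, Rab9 and Rab24 were searched too and are not shown. Rab6b, which also fell, had 1 GC box, while Rab9 and Rab24, with positive differences, had 0. All of these had 0 AP-1 sites. The windows of Rab6b and Rab24 lie inside annotated exons. A match is a run of letters and not a bound site.

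Of the 56 Rab genes, 43 passed the filter on low counts and were tested. A further 7 had some reads but were not tested: Rab25, Rab30, Rab36, Rab39b, Rab3b, Rab40b and Rab42, each at under 0.7 CPM in every library. Rab36, a Golgi member, had 2, 9 and 9 counts in control replicates 1 to 3 and 0, 2 and 1 in Pex5-deficient replicates 1 to 3. Rab15, Rab17, Rab27b, Rab33a, Rab3c and Rab9b had 0 counts in all 6 libraries, where 3 counts would be 0.155 to 0.225 CPM of the unscaled library totals. Among these silent genes are Rab17, known from epithelium, and Rab3c and Rab27b, which serve regulated secretion in other cells.

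Per kilobase of annotated exon, Rab7, which drives fusion of late endosomes and phagosomes with lysosomes, had the highest control level at 139 ± 9.32 CPM per kb (mean ± SD, n = 3 here and throughout). Rab1b and Rab1a, both of traffic from the endoplasmic reticulum (ER) to the Golgi, came next at 105 ± 1.09 and 73.6 ± 19.1 CPM per kb. Rab11a of the recycling endosome was at 57.2 ± 10.6, and Rab29, a partner of the kinase LRRK2, at 41.7 ± 2.04. The SDs of Rab1a and Rab11a overlapped, so their order is not firm. Rab3d (36.7 ± 0.977), Rab8b (34.7 ± 4.54) and Rab8a (31.8 ± 2.69), members of the secretory path to the plasma membrane, followed. The SD of Rab8b overlapped those of both its neighbours, while Rab3d and Rab8a did not overlap. Exon lengths come from a GENCODE annotation that may not be the one used for counting. The summed level of the 56 genes was 2636 to 3077 CPM in control and 2398 to 2872 CPM in Pex5-deficient libraries, and these ranges overlapped.

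**Figure D1:**
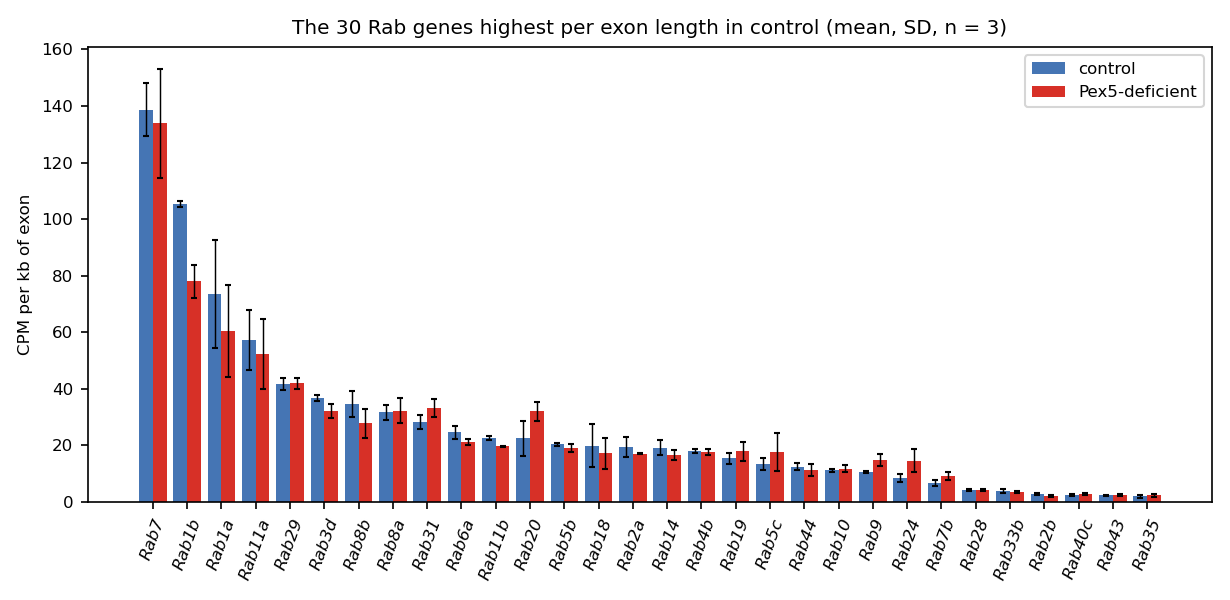
Level per exon length of the 30 Rab genes highest in control, in CPM per kilobase on a linear axis from 0. Bars are means of 3 libraries with SD, blue for control and red for Pex5-deficient; Rab7 leads both groups, at 139 and 134 CPM per kb, and Rab1b is at 105 and 78.0.

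In the quasi-likelihood test of edgeR, the source of every adjusted p here unless another tool is named (Benjamini-Hochberg, 11011 genes), Rab39 and Rab6b fell in Pex5-deficient macrophages and 0 of the 43 tested Rab genes rose. That is 2 of 43 (4.65%), against 3.25% of all genes tested (1.74% higher and 1.51% lower), a share near the background. Over all genes 192 were higher and 166 lower, and 289 and 132 with scaling by library size alone. The same held at an unadjusted p under 0.05, with 9 of 43 Rab genes (20.9%) against 18.9% of all genes (9.7% higher and 9.17% lower). The groups did not overlap for 12 of 43 (27.9%), 5 with Pex5-deficient above and 7 below, against 26.1% of all genes (13% above and 13.1% below). The median log2 fold change, Pex5-deficient over control, was -0.09 for the tested Rab genes and -0.000767 for all genes, and with library size alone 0.07 and 0.17. Leaving out control replicate 1 or 2 brought the Rab median to -0.028 or -0.012, and leaving out replicate 1 or 2 of the Pex5-deficient group to -0.062 or -0.020. The family as a whole was thus not set apart from other genes by any of these counts. On simulated counts with the means and spread of this comparison, 13.4% of genes changed 1.5-fold and 70.2% of genes changed 2-fold were recovered, so differences of the size most Rab genes showed would often be missed.

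**Figure D2:**
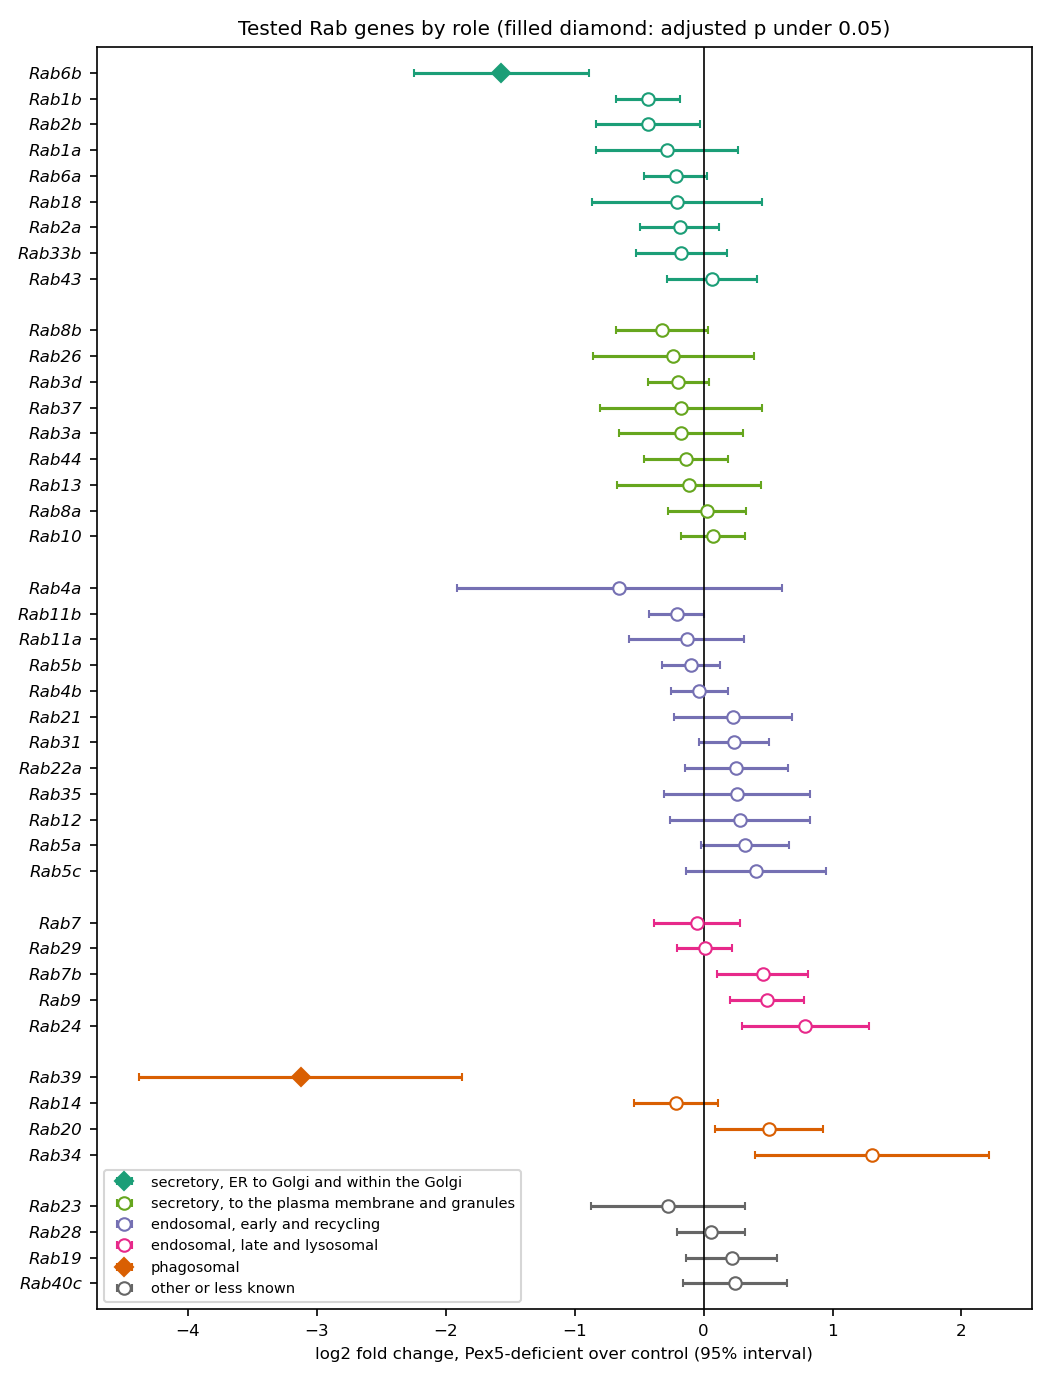
Log2 fold change, Pex5-deficient over control, of the 43 tested Rab genes with 95% intervals from the fit, grouped and coloured by role; filled diamonds mark an adjusted p under 0.05. Rab6b (-1.57) and Rab39 (-3.12) are the filled ones, and most other points lie within 0.5 of 0.

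The phagosomal Rabs had 4 members, all tested. Rab39, also called Rab39a and linked to phagosome acidification and autophagy, was scarce and fell further. Its level was 1.88, 1.2 and 2.90 CPM in the controls (replicates 1 to 3) and 0.0782, 0.168 and 0.396 CPM in the Pex5-deficient libraries. Every Pex5-deficient library was below every control library. The log2 fold change was -3.12 ± 0.55 (SE; 95% interval -4.38 to -1.87; adjusted p = 0.0233). In counts this was 88 in the 3 control libraries together and 12 in the Pex5-deficient ones, a ratio of 8.83 per scaled library size with an exact 95% interval from 4.81 to 17.7 that covers counting error only. Rab39 reached the filter's cutoff of 0.622 CPM in the 3 control libraries and in 0 Pex5-deficient ones, so it entered the test through the group where it was high. With no filter its adjusted p was 0.00644, but that setting called more genes in all, 488 against 358. The call was lost without Pex5-deficient replicate 1 (adjusted p = 0.0866) or 2 (0.052) and without control replicate 1 (0.0868) or 3 (0.0822), while the log2 fold change stayed between -3.80 and -2.73. The shared 100-base words of its longest transcript with any other gene were 0%, and its X-linked relative Rab39b had at most 1 count in each library.

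Rab34, which serves fusion of phagosomes and macropinosomes with lysosomes, went the other way in its values without being called. It was at 1.72, 5.15 and 2.23 CPM in the controls (replicates 1 to 3) and at 10.3, 5.76 and 7.12 CPM in the Pex5-deficient libraries. The groups did not overlap, but control replicate 2 and Pex5-deficient replicate 2 were close. Its log2 fold change was 1.31 ± 0.40 (adjusted p = 0.123), and it was called without control replicate 2 (1.95, adjusted p = 0.0409), with scaling by library size alone (1.46, 0.0107) and with DESeq2 (1.33, 0.0212). Rab20, a Rab of phagosome maturation that interferon-gamma induces, was at 25.3, 41.3 and 27.3 CPM in control and 50.1, 42.1 and 42.0 CPM in the Pex5-deficient libraries. Here too control replicate 2 lay nearly at the Pex5-deficient level, and the log2 fold change of 0.51 ± 0.18 (adjusted p = 0.179) was called only without that library among the alternatives run (0.76, adjusted p = 0.042). An antisense gene covers 25.6% of the exon bases of Rab20, and reads of the 2 strands may not be told apart. Rab14, which acts between the Golgi, early endosomes and phagosomes, had the most reads of the group, though per kilobase of exon its control level (19.2 ± 2.67 CPM per kb) was not above that of Rab20 (22.5 ± 6.24). It was at 298, 260 and 226 CPM in control and 234, 199 and 242 CPM in Pex5-deficient libraries. Its groups overlapped (-0.21 ± 0.14, adjusted p = 0.46).

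**Figure D3:**
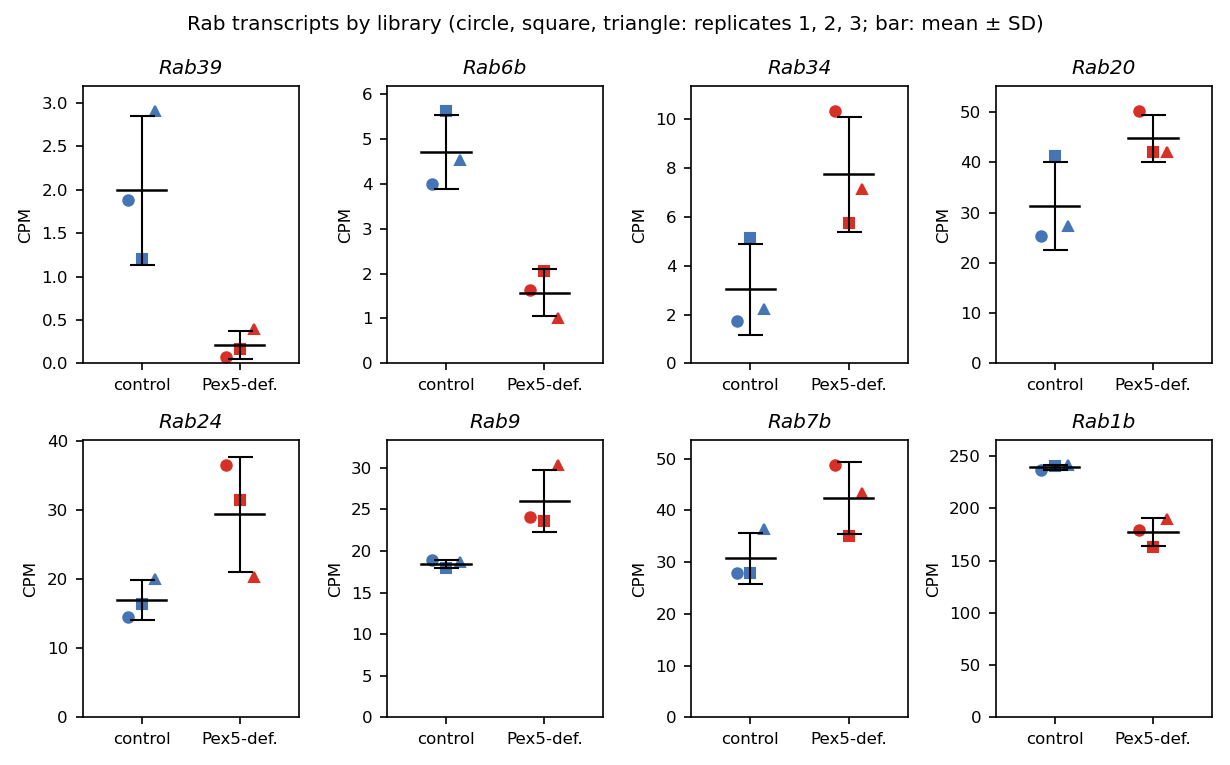
CPM by library of 8 Rab genes, each on its own linear axis from 0; points are libraries (circle, square and triangle for replicates 1, 2 and 3), blue for control and red for Pex5-deficient, and black bars are mean ± SD. Rab39, Rab6b and Rab1b sit lower in every Pex5-deficient library, and Rab34, Rab20, Rab24 and Rab9 higher in each, while Rab7b overlaps.

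Among late endosomal and lysosomal Rabs 0 of 5 tested members were called by edgeR, against 3.25% of all genes. DESeq2 called 2, Rab9 and Rab24, but it called 755 of the 11011 genes where edgeR called 358. By edgeR 3 of the 5 members, Rab24, Rab9 and Rab7b, had positive differences with an unadjusted p under 0.05, where 9.7% of all genes did so. Rab9, which returns mannose 6-phosphate receptors from late endosomes to the Golgi, was at 18.9, 17.9 and 18.6 CPM in the controls (replicates 1 to 3) and 24.1, 23.6 and 30.3 CPM in the Pex5-deficient libraries. The groups did not overlap, with the control values close together, and the log2 fold change was 0.49 ± 0.13 (95% interval 0.21 to 0.78; adjusted p = 0.0793; 0.0439 with DESeq2). Rab9 was not called under any other alternative run, with an adjusted p from 0.0523 to 0.209. Rab24, an atypical Rab linked to autophagy, was at 14.5, 16.4 and 20.1 CPM in control and 36.5, 31.5 and 20.3 CPM in Pex5-deficient libraries. Its Pex5-deficient replicate 3 lay at the level of control replicate 3. The log2 fold change was 0.79 ± 0.22 (adjusted p = 0.0938), and it was called without Pex5-deficient replicate 3 (0.0237), with no filter (0.0402), with library size alone (0.0261) and with DESeq2 (0.0232). Exons of Prelid1, on the opposite strand, cover 62.4% of the exon bases of Rab24, so part of its counts may not be its own.

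Rab7b, known for traffic from late endosomes to the Golgi and for handling of Toll-like receptors, was at 27.9, 27.9 and 36.5 CPM in control and 48.7, 35.0 and 43.3 CPM in the Pex5-deficient libraries, and these ranges overlapped (0.46 ± 0.16, adjusted p = 0.159). Rab7b took 6.80% to 9.81% of the counts of Rab7 and Rab7b together in control libraries and 10.1% to 11.6% in Pex5-deficient ones, a share that does not depend on library scaling. The Wilson 95% intervals of control replicate 3 (9.05% to 10.6%) and Pex5-deficient replicate 3 (9.46% to 10.8%) overlapped. Rab7 itself was at 369, 382 and 335 CPM in control and 371, 292 and 385 CPM in Pex5-deficient libraries (-0.05 ± 0.15, adjusted p = 0.887, 95% interval -0.39 to 0.28), and 11.0% of its 100-base words occur in another gene, most in a pseudogene. Rab29 differed least of the group, at 0.01 ± 0.09 (95% interval -0.20 to 0.22, adjusted p = 0.97). The median log2 fold change of the 5 members was 0.46, and 0.35 to 0.57 with single libraries left out.

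In the path from ER to Golgi and within the Golgi, 1 of 9 tested Rabs fell (11.1%, against 1.51% of all genes) and 0 rose. At an unadjusted p under 0.05, 3 of 9 (33.3%) were lower, against 9.17% of all genes. Rab6b, an isoform of Rab6 of retrograde Golgi traffic that is best known from neurons, lies on chromosome 9 from 103111787 to 103185276 in 8 exon blocks. It was at 3.99, 5.61 and 4.52 CPM in the controls (replicates 1 to 3) and 1.64, 2.06 and 1.02 CPM in the Pex5-deficient libraries. Even the lowest control library was above the highest Pex5-deficient one, and the log2 fold change was -1.57 ± 0.30 (95% interval -2.25 to -0.89; adjusted p = 0.0306). The call was lost without Pex5-deficient replicate 1 (0.100) or 3 (0.062), without control replicate 1 (0.0852), 2 (0.11) or 3 (0.0884), and with the replicate number as a block (0.0817), the value staying between -1.84 and -1.33 in these and the other alternatives. Its widely expressed partner Rab6a was at 102, 89.0 and 84.7 CPM in control and 83.8, 75.6 and 78.2 CPM in Pex5-deficient libraries (-0.21 ± 0.11, adjusted p = 0.322). Rab6b took 3.77%, 5.93% and 5.07% of the counts of Rab6a and Rab6b in control replicates 1 to 3 and 1.92%, 2.65% and 1.29% in Pex5-deficient replicates 1 to 3. In the library with the fewest reads of Rab6b, 18 counts, the Wilson 95% interval of that share was 0.814% to 2.02%. An exact permutation test of 3 against 3 libraries cannot give a p under 0.1.

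Rab1b had the smallest p of the members not called. It was at 237, 240 and 241 CPM in the controls (replicates 1 to 3) and 179, 163 and 190 CPM in the Pex5-deficient libraries, with no overlap (-0.43 ± 0.11, adjusted p = 0.0753; 0.00783 with DESeq2, 0.556 with library size alone). Its paralog Rab1a varied far more within groups, from 208 to 353 CPM in control and from 163 to 285 CPM in Pex5-deficient libraries (-0.28 ± 0.24, adjusted p = 0.577). Rab2b, also of ER and Golgi traffic, was at 13.8, 11.3 and 10.7 CPM in control and 7.27, 9.12 and 10.004 CPM in Pex5-deficient libraries (-0.43 ± 0.18, adjusted p = 0.236), and a gene on the other strand covers 59.3% of its exon bases. Rab18, a Rab of the ER and of lipid droplets, overlapped between groups (-0.21 ± 0.29, adjusted p = 0.753). Log2 fold changes were negative for 8 of the 9 members, with a median of -0.21, and 8 of 9 were negative with library size alone too, where the median was -0.06; leaving out single libraries moved the median from -0.47 (without Pex5-deficient replicate 3) to -0.08 (without control replicate 1).

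The secretory Rabs of the plasma membrane and granules showed 0 calls among 9 tested members by edgeR or DESeq2. Of all genes, edgeR called 3.25%, and DESeq2 called 755 of 11011. By edgeR 0 of the 9 had an unadjusted p under 0.05, against 18.9% of all genes. Rab8b, of exocytosis, was at 186, 164 and 143 CPM in control and 120, 116 and 159 CPM in Pex5-deficient libraries (-0.32 ± 0.16, adjusted p = 0.309). Rab8a, its near relative, was at 136 to 162 CPM in control and 127 to 166 CPM in Pex5-deficient libraries (0.02 ± 0.13, 95% interval -0.28 to 0.33, adjusted p = 0.949). Rab3d, a Rab of secretory granules, was at 150, 158 and 155 CPM in control and 129, 128 and 146 CPM in Pex5-deficient libraries, without overlap and without a call (-0.19 ± 0.10, adjusted p = 0.353). Rab44, a large Rab of blood-derived cells, differed by -0.13 ± 0.14 (adjusted p = 0.663), with 58.3 to 70.2 CPM in control and 49.3 to 69.1 CPM in Pex5-deficient libraries. The remaining members, Rab10, Rab3a, Rab13, Rab37 and Rab26, had log2 fold changes from -0.23 to 0.07. The values were negative for 7 of 9 members, with a median of -0.17, but for 4 of 9 with a median of 0.03 under scaling by library size alone. Leaving out control replicate 2 brought the median to -0.05, and leaving out replicate 1 of the Pex5-deficient group to -0.09.

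Early endosomal and recycling Rabs likewise had 0 calls among 12 tested members by edgeR or DESeq2. The share called over all genes was 3.25% by edgeR, and DESeq2 called 755 of 11011. At an unadjusted p under 0.05 by edgeR there were 0 of 12, against 18.9% of all genes. The median log2 fold change of the 12 members was 0.23, and 0.06 without Pex5-deficient replicate 2. Rab5a, the organiser of early endosome fusion, was at 10.01, 9.91 and 9.59 CPM in control and 12.6, 10.6 and 13.7 CPM in Pex5-deficient libraries, and the groups did not overlap (0.32 ± 0.15, adjusted p = 0.288). Rab11b, of recycling endosomes, was at 138, 136 and 144 CPM in control and 122, 121 and 119 CPM in Pex5-deficient libraries, again without overlap (-0.21 ± 0.09, adjusted p = 0.279). Rab31, which links the Golgi to endosomes, was at 114, 96.3 and 113 CPM in control and 113, 134 and 132 CPM in Pex5-deficient libraries (0.23 ± 0.12, adjusted p = 0.324). The other 9 members, Rab11a, Rab5b, Rab4b, Rab5c, Rab22a, Rab21, Rab35, Rab12 and Rab4a, overlapped between groups, with log2 fold changes from -0.65 (Rab4a) to 0.41 (Rab5c). The value of Rab4a was 0.09 without control replicate 2, which held 37 counts against 9 and 11 in the other controls. Rab4b shares 92.8% of its words with an overlapping predicted gene, so its value is uncertain, as is that of the Golgi member Rab43 with 90.3%.

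Rab5c owed its position to the library that stood apart. It was at 30.7, 24.7 and 33.4 CPM in the controls (replicates 1 to 3) and at 31.1, 55.9 and 29.8 CPM in the Pex5-deficient libraries. Its share of the counts of Rab5a, Rab5b and Rab5c was 39.5% in Pex5-deficient replicate 2 (Wilson 95% interval 37.9% to 41.2%) and 21.0% to 25.6% in the other libraries. The log2 fold change was 0.41 ± 0.24 (adjusted p = 0.401) and 0.06 without that replicate. Rab5c was singled out after its values were seen.

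The less known members had 0 calls among 4 tested by edgeR or DESeq2, where edgeR called 3.25% of all genes and DESeq2 755 of 11011. At an unadjusted p under 0.05 by edgeR there were 0 of 4, against 18.9% of all genes. Rab19 was at 21.0 to 26.4 CPM in control and 24.4 to 34.3 CPM in Pex5-deficient libraries (0.22 ± 0.16, adjusted p = 0.495), and Rab28, known from cilia, differed by 0.06 ± 0.12 (95% interval -0.21 to 0.32, adjusted p = 0.845). Rab40c, which has a domain that recruits ubiquitin ligase partners, differed by 0.24 ± 0.18 (adjusted p = 0.502), and Rab23, known from cilia and Hedgehog signalling, by -0.28 ± 0.26 (adjusted p = 0.619).

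The proteins that load, switch and read Rabs were taken from a list of 111 genes, of which 98 were tested. 5 rose and 1 fell, together 6.12% of the list against 3.25% of all genes, and 28.6% did not overlap between groups against 26.1%. Both shares count Micall2, which reached the filter's cutoff only in Pex5-deficient libraries. Dennd2a, an exchange factor for Rab9, was at 11.3, 11.9 and 12.4 CPM in the controls (replicates 1 to 3) and 23.6, 25.8 and 21.9 CPM in the Pex5-deficient libraries. It was about doubled in every Pex5-deficient library (log2 fold change 1.01 ± 0.12, adjusted p = 0.00507), and it was called under all 12 alternatives run, with an adjusted p from 4.75e-08 to 0.0415. Of the 29 tested exchange factors it was the only one called (3.45%, near the 3.25% of all genes). Rab9 itself, given above, was not called.

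Rabggtb, the catalytic subunit of the transferase that adds the lipid anchor to Rabs, rose from 10.1, 13.8 and 13.4 CPM in the controls (replicates 1 to 3) to 23.0, 21.2 and 21.6 CPM in the Pex5-deficient libraries. The groups were well apart (0.82 ± 0.14, adjusted p = 0.0233), but the call was lost without Pex5-deficient replicate 1 (0.0891), without control replicate 1 (0.0691) or 3 (0.0618) and with the replicate block (0.0982). The other 6 tested genes of prenylation and recycling were not called, the partner subunit Rabggta among them (-0.09 ± 0.11, adjusted p = 0.717).

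Effectors held the remaining calls, with 3 higher and 1 lower of 29 tested (13.8% against 3.25% of all genes). That share counts Micall2, which entered the test through the group where it was high. Bicd1, a Rab6 partner that links to dynein, is named here after its values were seen. It was lower in every Pex5-deficient library without being called (-1.90 ± 0.52, adjusted p = 0.0942). DESeq2 called it lower (0.0298), as did the fit without Pex5-deficient replicate 2 (0.0312). Bicd1 was scarce, its highest control level being 1.66 CPM (replicate 2) and its lowest Pex5-deficient level 0.0782 CPM (replicate 1). The related gene Bicd2, on the same list, lay the other way with overlapping groups and no call (0.29 ± 0.17, adjusted p = 0.393). Rilpl2, which binds phosphorylated Rab8 and Rab10, was at 37.9, 64.5 and 44.3 CPM in control and 105, 79.7 and 90.1 CPM in Pex5-deficient libraries (0.90 ± 0.20, adjusted p = 0.0463). Wdr91, a Rab7 partner on endosomes, was at 20.7, 19.9 and 20.9 CPM in control and 28.9, 29.8 and 26.4 CPM in Pex5-deficient libraries (0.47 ± 0.10, adjusted p = 0.0448). Micall2, a partner of Rab13 and Rab8, was scarce, at 0.313, 0.401 and 0.270 CPM in control and 1.49, 1.26 and 1.19 CPM in Pex5-deficient libraries (1.95 ± 0.36, adjusted p = 0.0277), and reached the filter's cutoff only in the Pex5-deficient libraries. All 3 were higher in every Pex5-deficient library than in any control library. Rab11fip1, a partner of Rab11 on recycling endosomes, fell from 52.8, 59.2 and 53.9 CPM to 29.9, 42.4 and 33.4 CPM (-0.65 ± 0.14, adjusted p = 0.0429).

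Each of these 4 calls was lost when some single libraries were left out. Without Pex5-deficient replicate 2 Rilpl2 (0.0453), Micall2 (0.0453) and Rab11fip1 (0.0131) were still called, as was Rilpl2 without control replicate 2 (0.0177), while Wdr91 was lost with any library left out. For Rilpl2 the call was lost when Pex5-deficient replicate 1 (0.155) or 3 (0.0827) was left out, or control replicate 1 (0.148) or 3 (0.144), and for Wdr91 when Pex5-deficient replicate 1 (0.142), 2 (0.0636) or 3 (0.065) was, or control replicate 1 (0.145), 2 (0.143) or 3 (0.115). For Micall2 this held of Pex5-deficient replicate 1 (0.100) or 3 (0.0641) and of control replicate 1 (0.123), 2 (0.0742) or 3 (0.115). For Rab11fip1 it held of Pex5-deficient replicate 1 (0.135) or 3 (0.104) and of control replicate 1 (0.124), 2 (0.136) or 3 (0.122). Wdr91 also missed it with limma-voom (0.0554). With library size alone neither Wdr91 (0.202) nor Rab11fip1 (0.459) was called, and with the replicate block none of the 4 was (0.0839 to 0.182). Among 33 tested GTPase-activating proteins 0 were called by edgeR, with 5 (15.2%) at an unadjusted p under 0.05 against 18.9% of all genes. The 2 of smallest p were Tbc1d5, which acts on Rab7 (-0.46 ± 0.12, adjusted p = 0.0816, 0.0474 with DESeq2 and 0.0445 without Pex5-deficient replicate 2), and Sgsm2 (0.81 ± 0.25, adjusted p = 0.13).

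**Figure D4:**
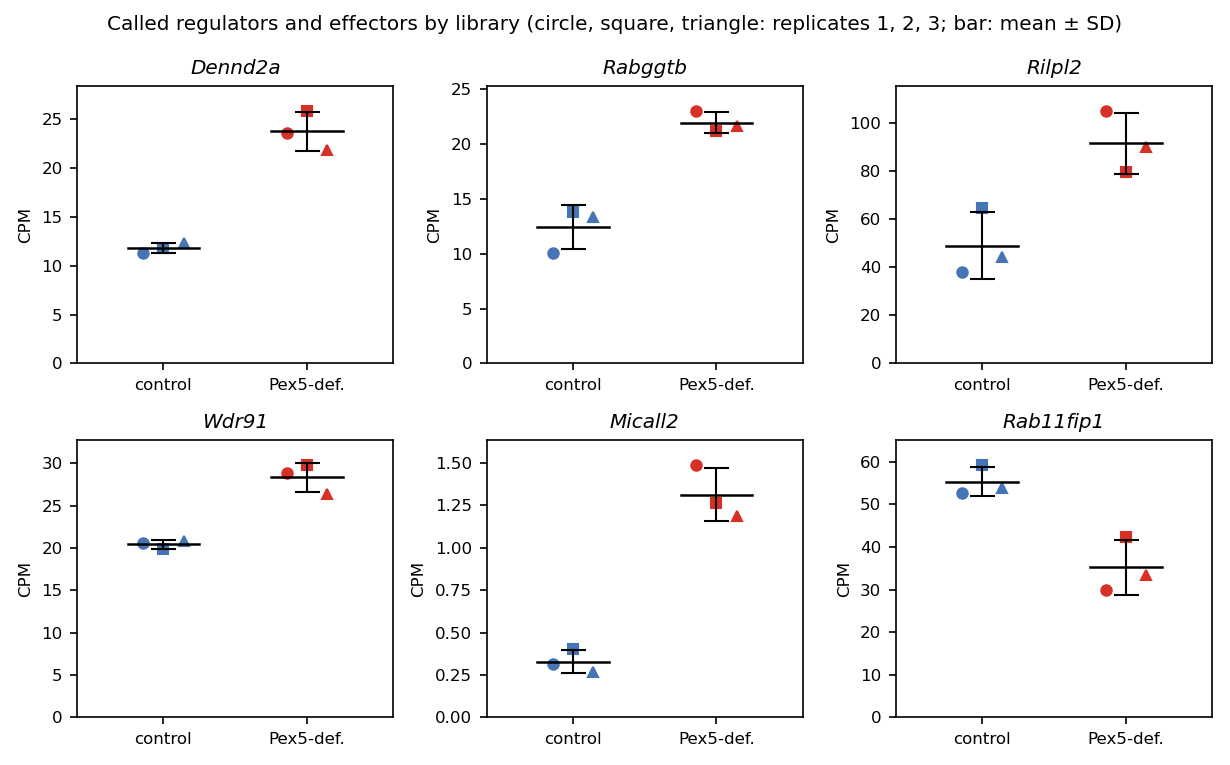
CPM by library of the 6 called regulators and effectors, each on its own linear axis from 0, with control in blue, Pex5-deficient in red, replicates 1 to 3 as circle, square and triangle, and black bars for mean ± SD. Dennd2a, Rabggtb, Rilpl2, Wdr91 and Micall2 are higher in all 3 Pex5-deficient libraries and Rab11fip1 is lower in all 3.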

How the data were processed

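Per the labels' protocols, total RNA of 50000 sorted macrophages per sample was made into stranded SMART-Seq libraries and sequenced as single-end reads of 100 bp. The values are the whole-number gene counts that the authors deposited. Per the submitters' processing notes the builds GRCm38.p5 and mm10 were used, with STAR, featureCounts, DESeq2 1.40.1 and R 4.3.2; the sources used here give neither annotation nor strand setting. Whether each sample is a different mouse is not stated, so the p-values describe the spread among these 6 libraries, which may be technical.

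Genes were kept by edgeR's filterByExpr (minimum count 10, minimum total 15), leaving 11011. Levels are CPM on library sizes scaled by trimmed mean of M values (TMM). The test was the two-sided quasi-likelihood test of edgeR 4.0.16 (R 4.3.3; functions glmQLFit, glmQLFTest). Adjustment by Benjamini-Hochberg ran over the whole set of tested genes, with calls under 0.05; each standard error is the fold change divided by the root of its F value. Role groups, partner genes and markers were listed by hand (the result of 1 marker list is not reported here), and the genes given in full were all called members, the 3 of smallest p and the 2 most abundant of each role, and of each partner class the called genes or else the 2 of smallest p. Members and lists were chosen with earlier results of these data known. Other genes named with values are partners of those, or are said to have been singled out. Alternatives were DESeq2 1.42.0, limma-voom (limma 3.58.1), other scalings, no filter, a replicate block and leaving out each library. The fit was tested on simulated data (3 simulations, 10918 genes tested on average). Exon lengths, overlaps and shared 100-base words are from GENCODE mouse release M21 on GRCm38, and sequences from RefSeq. PCR reads without molecular identifiers are not independent molecules, so intervals on counts cover counting error only.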

Additional observations from a re-analysis of the deposited data

How the results depend on the processing

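DESeq2 called 755 genes in all, 393 higher and 362 lower, and 6 Rab genes (Rab1b, Rab6b and Rab39 lower, Rab9, Rab24 and Rab34 higher), against 358 and 2. Scaling by library size alone called 4 Rab genes, Rab24 and Rab34 joining Rab39 and Rab6b, and moved the split over all genes from 192 higher and 166 lower to 289 and 132. Leaving out each library in turn gave 76 to 523 calls over all genes, 0 to 3 among Rab genes and 1 to 7 among regulators and effectors. Same-numbered libraries did not deviate together (correlations of -0.21, -0.06 and -0.41), so the numbers were not taken to pair the samples; the fit with the replicate block called 83 genes, 1 Rab gene (Rab39) and 1 regulator (Dennd2a).

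The log2 fold change of several uncalled genes changed sign, among them Rab4a, Rab4b, Rab5b, Rab10, Rab13, Rab37 and Rab43, not given in full. With library size alone it was 0.0053 for Rab11a, 0.0918 for Rab7 and 0.0729 for Rab44. Leaving out each library in turn gave -0.316 to 0.0455 for Rab11a, -0.128 to 0.0759 for Rab7, -0.0309 to 0.0407 for Rab29, -0.0466 to 0.146 for Rab8a and -0.489 to 0.12 for Rab18. The cause was not tested. Rab39 and Rab6b kept their direction in all 12 alternatives. Depth limits scarce members such as Rab39, Rab6b, Rab4a and Rab36, each with under 30 counts in at least 1 library.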

Other observations

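Several abundant Rab genes had the same order of libraries within each group, while other abundant ones did not. The pattern was noticed after the values were seen. Rab1a, Rab18, Rab11a, Rab8b and Rab14 were each highest in replicate 1 and lowest in replicate 3 of the control libraries, and each highest in replicate 3 and lowest in replicate 2 of the Pex5-deficient ones. Whether this order is particular to Rab genes was not tested, since its share over all genes was not counted. Over all tested genes, deviations from the group mean correlated at 0.40 between Pex5-deficient replicate 3 and control replicate 1. Between Pex5-deficient replicate 2 and control replicate 3 the correlation was 0.24. The other pairs of a Pex5-deficient and a control library ran from -0.41 to 0.17. The levels of Rab18 were 191, 128 and 89.4 CPM in the controls (replicates 1 to 3) and 105, 88.8 and 160 CPM in the Pex5-deficient libraries. Rab11a was at 205, 166 and 142 CPM and at 156, 119 and 194 CPM in the same libraries. Gdi2, the inhibitor that keeps Rab proteins in the cytosol, followed the same order, at 782, 642 and 628 CPM in control and 591, 413 and 632 CPM in Pex5-deficient libraries. Rab1b did not follow it in control, where it stayed between 237 and 241 CPM. In the Pex5-deficient libraries its levels of 179, 163 and 190 CPM had that order.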
